A study of Homo sapiens with 6 samples.

Results

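S100 genes encode small calcium-binding proteins, and 10 of them were followed through libraries labelled as NCI-N87 gastric carcinoma cells, wild type or with a knockout of the keratin gene KRT17. The 10 genes (S100A2, S100A4, S100A6, S100A8, S100A9, S100A10, S100A11, S100A14, S100A16 and S100P) were taken as a list of names, matched in GENCODE release 29, out of 58735 genes listed in the files. Of these 10, 9 reached the minimum level for testing (at least 1 FPKM in 2 or more libraries), and S100A8 did not. FPKM is a fragment count scaled by exon length and by a measure of library depth, so levels can be compared between genes of different length.

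Most S100 proteins work as dimers in which each chain carries a pair of EF-hand loops. Binding of calcium opens a groove that takes up a stretch of a partner protein, such as an annexin, a cytoskeletal protein or a regulator of transcription. Some S100 proteins are also released from cells and bind receptors such as RAGE (the product of AGER). In the stomach and in other epithelia the family is known mainly for members of the surface and glandular epithelium, and S100A8 and S100A9 are known from neutrophils and inflamed epithelium.

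Total RNA was sequenced in 6 libraries that the labels assign to NCI-N87, an established human gastric carcinoma line. The labels place 2 libraries in the wild-type group (WT) and 2 in each of the groups KO1 and KO2, which carry a KRT17 knockout. The labels do not say whether KO1 and KO2 are guides or clones, how the knockout was made, or whether the replicates are separate cultures. A p-value of the main fit thus sets a difference against the variation between libraries of the same group, pooled over the groups. Part or all of that variation may be technical, and it holds no variation between KO1 and KO2. The series title links keratin 17 with YAP, IL6 and loss of E-cadherin in diffuse gastric cancer. Comparing the knockout groups with WT shows which transcripts differ between libraries with these labels. It cannot tell the loss of KRT17 apart from any other difference between those libraries.

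KRT17 stood at 739 and 753 FPKM in WT, 2.29 and 2.40 in KO1, and 11.3 and 10.4 in KO2; its low level in all 4 knockout libraries matches their labels. The libraries held 17599759 to 22852340 recovered reads, and 1 read in a gene of 1 kb was worth 0.0429 to 0.0544 FPKM. The knockout libraries stood far from WT in more than KRT17. NCI-N87 is known for amplification of ERBB2, the HER2 receptor gene, and ERBB2 was at 1355 and 1420 FPKM in WT but at 5.27 to 6.07 FPKM in the 4 libraries labelled knockout. The summed level of 10 gastric carcinoma and epithelial markers was 4994 and 5160 FPKM in WT and 371 to 424 in the knockout libraries. KRT19, the highest of these markers in WT, went from 1695 and 1762 FPKM to at most 0.151. Of the 8 markers tested, 6 were called lower and 2 higher in the knockout average. The 2 higher ones, named after their values were seen, were MUC1 (5.52 and 5.53 FPKM in WT, 30.2 to 49.2 in the knockout libraries) and TFF1 (0 in WT, 0.782 to 3.58). KRT19 and CDH1, the E-cadherin gene, reached the minimum level only in WT, and TFF1 only in knockout libraries. The direction of those calls was thus fixed in advance. Whether the knockout libraries come from the same line as the WT libraries was not tested, and the ERBB2 level leaves it in doubt. Every comparison with WT below contains this wide change, whose part in the S100 results was not tested.

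The S100 genes split into a group that was lower in the knockout libraries and a group that was higher. S100A14, S100A2 and S100A9 fell to a small part of their WT level, and S100A11 fell by a smaller amount, with a KO2 sign that turned under quantile normalization. S100A4 rose the most, and S100P, S100A10 and S100A6 rose less. S100A16 hardly moved. Differences were tested with limma on log2(FPKM + 1), a scale that understates the change of low genes, and called at a Benjamini-Hochberg adjusted p below 0.05. For the knockout average (the mean of both knockout groups, minus WT), 5 of the 9 tested genes were called higher and 4 lower, with a median difference of 0.06 (log2). Over all 16046 genes tested, 40.5% were called higher and 40.1% lower, with a median of 0.02. A call is therefore common in these data, and the number of S100 genes called is close to the background. Their sizes and directions are what the values below describe. As in any bulk sample, fewer cells that carry a transcript and less of it per cell cannot be told apart.

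**Figure D1:**
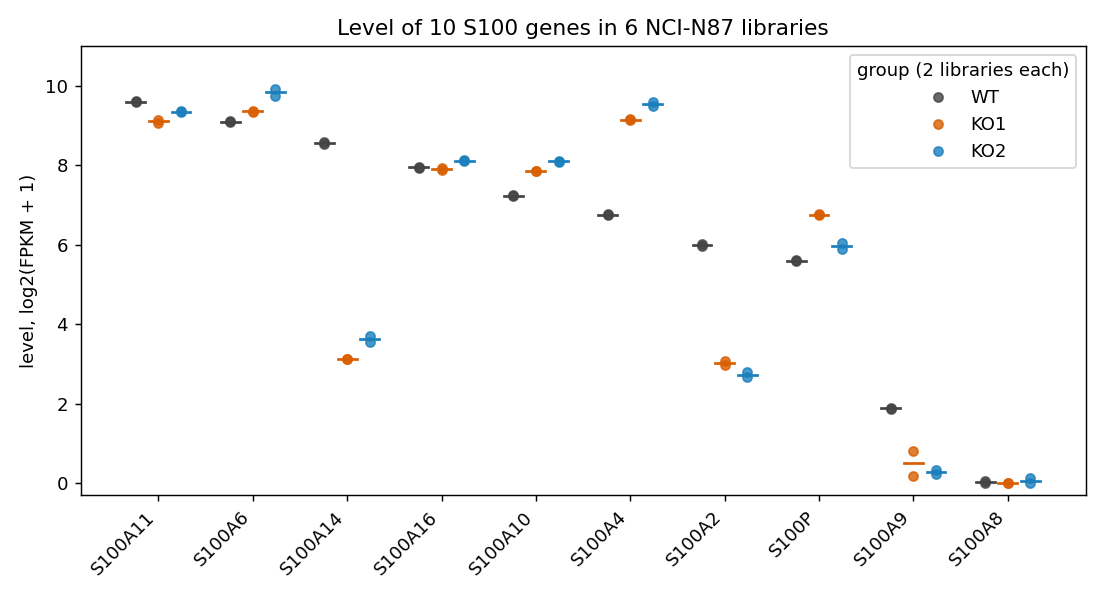
Level of each S100 gene in each library as log2(FPKM + 1), with 1 point per library and a bar at the group mean (WT dark grey, KO1 orange, KO2 blue, 2 libraries each). S100A14 and S100A2 are far lower in the 4 knockout libraries than in WT, S100A4 is far higher, and S100A8 lies near 0 in every library.

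In WT the order of levels was S100A11, S100A6, S100A14, S100A16, S100A10, S100A4, S100A2, S100P, S100A9 and S100A8. No WT library of one gene overlapped a WT library of the next in that order. In KO1 the order was led by S100A6 at 656 ± 9.98 FPKM (SD, n = 2), S100A4 at 567 ± 2.22 and S100A11 at 550 ± 19.2. S100A4 and S100A11 lay within 1 SD of S100A11 of each other in KO1. In KO2 the same genes led, at 917 ± 81.4 for S100A6, 740 ± 33.0 for S100A4 and 650 ± 5.08 for S100A11. S100A16 and S100A10, the next in KO2, overlapped in their libraries (276 ± 4.35 and 273 ± 4.34 FPKM). S100A14, the third gene in WT, ranked below S100P in both knockout groups.

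S100A14 encodes an epithelial S100 protein known for weak calcium binding. Its level was 382 and 369 FPKM in WT, 7.75 and 7.72 in KO1, and 10.7 and 12.1 in KO2. Every knockout library lay far under both WT libraries, and KO1 lay under KO2 without overlap. S100A14 was 48.5-fold lower in KO1 and 33.0-fold lower in KO2 than in WT. The limma differences were -5.43 ± 0.06 (log2, SE; adjusted p = 3.38e-07) and -4.93 ± 0.06 (adjusted p = 3.96e-07). S100A14 (ENSG00000189334) lies on the minus strand of chromosome 1 at 153614255 to 153616986 (GRCh38).

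S100A2 encodes a mainly nuclear S100 protein of basal and stratified epithelia that is known to bind p53. Its level was 63.8 and 61.5 FPKM in WT, 7.41 and 6.93 in KO1, and 5.37 and 5.98 in KO2. All 4 knockout libraries lay under WT, and here KO2 was the lower of the knockout groups. The level was 8.73-fold lower in KO1 and 9.75-fold lower over all knockout libraries. KO1 and KO2 had limma differences of -2.96 ± 0.06 (adjusted p = 1.40e-06) and -3.25 ± 0.06 (adjusted p = 1.09e-06). S100A2 (ENSG00000196754) lies on the minus strand of chromosome 1 at 153561108 to 153567890.

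S100A8 and S100A9 encode the chains of calprotectin, an antimicrobial dimer that binds zinc and manganese. S100A9 had 33 and 29 reads in WT, 2 and 10 in KO1, and 3 and 2 in KO2, which is 2.65 and 2.74, 0.149 and 0.762, and 0.265 and 0.187 FPKM. Both WT libraries were above all knockout libraries, and KO1 replicate 2 held most of the KO1 reads. The limma difference was -1.38 ± 0.21 in KO1 (adjusted p = 0.00208) and -1.59 ± 0.21 in KO2 (adjusted p = 0.00114). S100A9 passed the minimum level only through its WT libraries, so it could pass only with a fall. Without either WT library it was not tested. S100A8 had 1 and 0 reads in WT, 0 and 0 in KO1, and 0 and 2 in KO2. A count of 3 reads would be 0.128 to 0.162 FPKM for S100A8 at these depths, so no level was detectable in any group. S100A9 (ENSG00000163220) lies at 153357854 to 153361027 on the plus strand of chromosome 1, and S100A8 (ENSG00000143546) at 153390032 to 153391188 on the minus strand. Of the 10 myeloid and leukocyte markers looked at (PTPRC, TYROBP, CD14, ITGAM, CSF3R, FCER1G, CD68, LYZ, LST1 and MPO), none was tested. Their summed level was 1.69 and 1.71 FPKM in WT and 0.274 to 0.672 in the knockout libraries, and 3 markers were at 0 in each WT library. CD14, the highest, was at 0.933 and 1.10 FPKM in WT and 0.210 to 0.485 in the knockout libraries. The part of such cells in the S100A9 difference was not tested.

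S100A11 encodes a partner of annexin A1 that also takes part in growth control of keratinocytes. Its level was 771 and 777 FPKM in WT, 564 and 537 in KO1, and 654 and 646 in KO2. WT was highest and KO1 lowest, with no overlap between the 3 groups. The level was 1.41-fold lower in KO1 (difference -0.49 ± 0.03, limma adjusted p = 7.17e-05) and 1.19-fold lower in KO2 (-0.25 ± 0.03, adjusted p = 9.90e-04). The KO2 direction depended on scaling: after quantile normalization it was 0.08 (adjusted p = 0.174), and the knockout average was -0.07 (adjusted p = 0.149) against -0.37 ± 0.03 as deposited. S100A11 (ENSG00000163191) lies at 152032506 to 152047907 on the minus strand of chromosome 1.

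S100A4, also known as metastasin, encodes a protein that binds non-muscle myosin heavy chain and is known from motile and mesenchymal cells. Its level was 109 and 106 FPKM in WT, 565 and 569 in KO1, and 764 and 717 in KO2. Levels were lowest in WT and highest in KO2, with no overlap between the 3 groups. The level was 5.26-fold higher in KO1 (difference 2.38 ± 0.04, limma adjusted p = 7.62e-07) and 6.87-fold higher in KO2 (2.77 ± 0.04, adjusted p = 5.26e-07). S100A4 (ENSG00000196154) lies at 153543613 to 153550136 on the minus strand of chromosome 1. Fibroblasts are known for high S100A4. The 9 fibroblast markers looked at (COL1A1, COL1A2, COL3A1, DCN, LUM, PDGFRA, PDGFRB, THY1 and FAP) summed to 0.780 and 0.907 FPKM in WT and 44.8 to 58.1 in the knockout libraries. The 4 that were tested (COL1A1, DCN, LUM and PDGFRB) reached the minimum level only in knockout libraries, so a call could only be higher, as it was for each. LUM made up most of that sum, at 0 in both WT libraries and 28.8 to 31.5 FPKM in the knockout libraries, while PDGFRA was at 0 in all 6 libraries. The part of such markers in the S100A4 difference was not tested.

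S100A6, or calcyclin, encodes a protein that binds annexin A11 and the calcyclin-binding protein CACYBP. Its level was 548 and 547 FPKM in WT, 649 and 663 in KO1, and 974 and 859 in KO2. None of the groups overlapped, and KO2 had the widest spread. The level was 1.20-fold higher in KO1 (difference 0.26 ± 0.06, limma adjusted p = 0.0120) and 1.67-fold higher in KO2 (0.74 ± 0.06, adjusted p = 1.85e-04). Without KO1 replicate 2 the KO1 call was lost (adjusted p = 0.0586). S100A6 (ENSG00000197956) lies at 153534599 to 153536244 on the minus strand of chromosome 1, where 2.4% of its exon bases are shared with the antisense gene BX470102.1 (2.18 to 6.15 FPKM).

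S100A10, or p11, encodes a member that has lost calcium binding and forms a tetramer with annexin A2 at the plasma membrane. Its level was 149 and 151 FPKM in WT, 230 and 231 in KO1, and 270 and 276 in KO2. WT was lowest and KO2 highest without overlap, and the libraries within each group lay close together. The level was 1.54-fold higher in KO1 (difference 0.61 ± 0.02, limma adjusted p = 1.04e-05) and 1.82-fold higher in KO2 (0.86 ± 0.02, adjusted p = 3.57e-06). S100A10 (ENSG00000197747) lies at 151982915 to 151994390 on the minus strand of chromosome 1.

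S100P encodes a secreted and intracellular member that is known from stomach epithelium and binds ezrin and RAGE. Its level was 47.2 and 48.1 FPKM in WT, 108 and 106 in KO1, and 65.6 and 58.3 in KO2. All knockout libraries lay above WT, and KO1 lay above KO2. The level was 2.24-fold higher in KO1 (difference 1.15 ± 0.06, limma adjusted p = 2.78e-05) and 1.30-fold higher in KO2 (0.37 ± 0.06, adjusted p = 0.00231). With the knockout libraries treated as 1 group of 4, the average difference of 0.76 was not called (adjusted p = 0.0532). S100P (ENSG00000163993) is the one of the 10 genes outside chromosome 1, at 6693069 to 6697170 on the plus strand of chromosome 4.

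S100A16 encodes a broadly expressed member. Its level was 245 and 246 FPKM in WT, 236 and 241 in KO1, and 279 and 273 in KO2. KO2 was above the other groups without overlap, and KO1 lay just under WT. KO1 did not pass the test (difference -0.04 ± 0.02, limma adjusted p = 0.178), but it was called higher under quantile normalization (0.21, adjusted p = 0.00120) and with scaling by library size alone (0.10, adjusted p = 0.0184). KO2 was 1.12-fold higher (0.17 ± 0.02, adjusted p = 0.00170). The call for the knockout average (0.06 ± 0.02, adjusted p = 0.0372) was lost without WT replicate 1, WT replicate 2, KO1 replicate 1, KO1 replicate 2 or KO2 replicate 1 (adjusted p 0.0585 to 0.143). It was lost as well without the minimum level (adjusted p = 0.0914) and with 1 knockout group of 4 (adjusted p = 0.518). S100A16 (ENSG00000188643) lies at 153606886 to 153613145 on the minus strand of chromosome 1, next to S100A14.

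**Figure D2:**
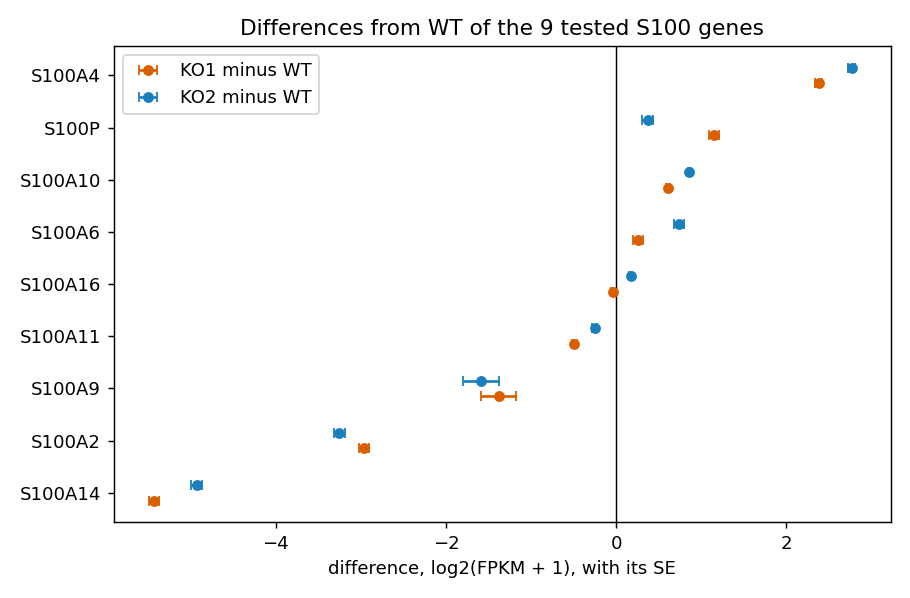
Difference from WT on the log2(FPKM + 1) scale for the 9 tested S100 genes, with KO1 (orange) and KO2 (blue) as points and the SE as bars. S100A14 lies near -5 in both groups and S100A4 between 2 and 3. S100A16 lies near 0, and its KO1 sign, like the KO2 sign of S100A11, turns under quantile normalization.

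KO1 and KO2 were each compared with the same WT libraries, so those comparisons are not independent of each other. In KO1, 4 of the 9 tested S100 genes were called higher and 4 lower, beside 39.3% and 38.6% of all genes tested. In KO2, 5 were called higher and 4 lower, beside 39.1% and 39.8% of all genes.

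In the direct comparison of KO2 with KO1, the difference itself does not use the level in WT. The WT libraries still enter the minimum level and the spread of its test, and S100A9 was tested only through them. KO2 minus KO1 called 6 S100 genes higher and 2 lower, with a median difference of 0.24. Over all genes tested, 11.2% were called higher and 15.0% lower, with a median of -0.01. The level in KO2 exceeded that in KO1 1.47-fold for S100A14, 1.40-fold for S100A6, 1.31-fold for S100A4, 1.18-fold for both S100A10 and S100A11 and 1.16-fold for S100A16. S100P was 1.72-fold higher in KO1 than in KO2, and had the widest called difference between the knockout groups on the log2(FPKM + 1) scale (-0.78 ± 0.06, limma adjusted p = 0.00151). S100A2 was 1.26-fold higher in KO1 (-0.29 ± 0.06, adjusted p = 0.0224), a call that was lost without KO1 replicate 1 (adjusted p = 0.110), KO1 replicate 2 (adjusted p = 0.0616) or KO2 replicate 1 (adjusted p = 0.0665). It was lost too without the minimum level (adjusted p = 0.0559) and with voom on recovered reads (adjusted p = 0.0564). For S100A9 the difference between the knockout groups was -0.22 ± 0.21 (adjusted p = 0.514).

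The changes of single genes left the summed S100 level much less altered than its make-up. The 10 genes summed to 2318 and 2309 FPKM in WT, 2367 and 2362 in KO1, and 3022 and 2848 in KO2. KO2 stood above the other groups, while KO1 lay just above WT. S100A14 made up 16.2% of the sum in WT, but 0.327% in KO1 and 0.389% in KO2. S100A4 made up 4.66% in WT, but 24.0% in KO1 and 25.2% in KO2. The share of S100A11 went from 33.5% to 23.3% and 22.2%, and that of S100A6 from 23.7% to 27.7% and 31.2%. S100A16 kept 10.6%, 10.1% and 9.41%. These 10 genes held 98.6 to 99.6% of the summed level of 21 S100 genes looked at, and 0.738 to 1.10% of all FPKM of a library.

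**Figure D3:**
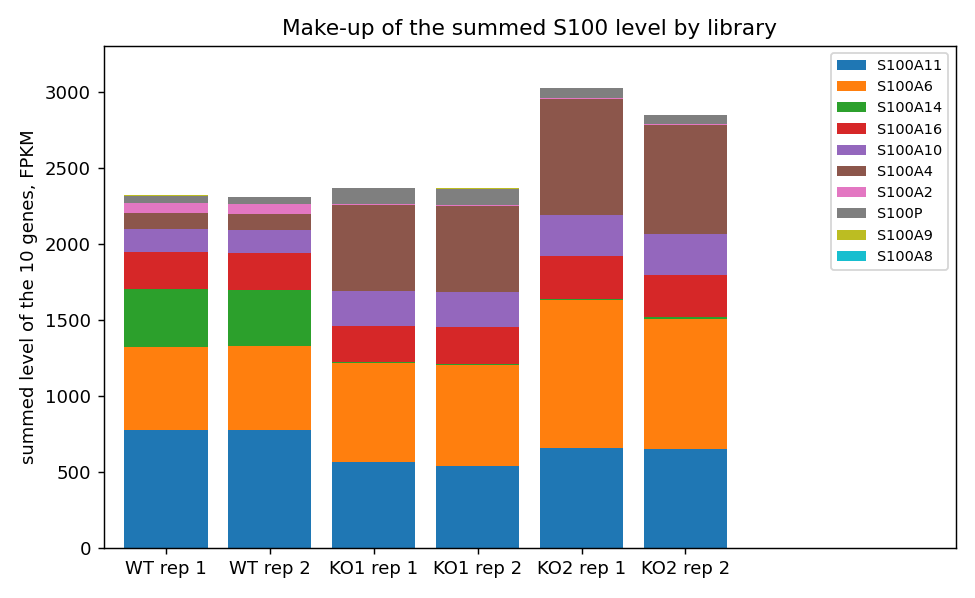
Summed level of the 10 S100 genes in FPKM per library, stacked by gene. The S100A14 band (green) is wide in WT and hardly visible in the knockout libraries, and the S100A4 band (brown) is narrow in WT and wide in the knockout libraries.

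Of 11 other S100 genes, 3 reached the minimum level, and all 3 were called higher in the knockout average, where 40.5% of all genes tested were called higher. S100A3, whose gene lies within the span of S100A4 on the same strand with 0 shared exon bases, was at 1.16 and 2.05 FPKM in WT, 15.7 and 14.6 in KO1, and 15.3 and 12.6 in KO2. It was 9.05-fold higher in the knockout libraries (difference 2.59 ± 0.16, limma adjusted p = 4.62e-05), beside 6.06-fold for S100A4. Reads of unspliced S100A4 RNA over that span could count for S100A3, and their part was not tested. S100A13 was at 6.65 and 6.44 FPKM in WT, 13.3 and 15.5 in KO1, and 17.9 and 16.5 in KO2 (2.42-fold, difference 1.15 ± 0.07, adjusted p = 4.60e-05). Its exons share 235 bases with S100A1 on the opposite strand and 536 with AL162258.1, which is on its own strand. Its reads are therefore uncertain at the AL162258.1 bases in any case, and at the S100A1 bases if counting ignored strand. S100A5 was at 1.65 and 1.53 FPKM in WT, 2.41 and 2.02 in KO1, and 3.77 and 2.89 in KO2. Its knockout average differed by 0.52 ± 0.11 (adjusted p = 0.00630), and its KO1 difference of 0.31 ± 0.12 was not called (adjusted p = 0.0664). That difference was called with library size alone (0.39, adjusted p = 0.0308) and without KO2 replicate 1 (adjusted p = 0.0316) or KO2 replicate 2 (adjusted p = 0.0305). S100A1 was below the minimum level at 0.428 to 1.35 FPKM. The fused-type relatives, large proteins of the cornified layer with an S100 domain at one end, were all below it. TCHH was the highest of them, at 0.470 and 0.475 FPKM in WT and 0.00629 to 0.0539 in the knockout libraries.

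S100 genes are short and related, so reads could in principle be shared between them. The coding regions of the 10 genes ran from 90 codons in S100A6 to 114 in S100A9. The closest pair was S100A2 and S100A4, with 69.3% of aligned coding bases identical, followed by S100A4 and S100A6 (62.7%) and S100A2 and S100A6 (62.0%). The most distant pair was S100A10 and S100A14 (44.5%). In 9 of the 10 genes 0% of the 50-base words of their transcripts occurred in a transcript of another gene, and in S100A11 1.9% did, shared with AC006483.1. S100A2 and S100A4, the closest pair in sequence and neighbours on the chromosome, were among the genes with the widest differences in opposite directions.

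Of the 10 genes, 9 lie along one stretch of chromosome 1, in band 1q21, in the order S100A10, S100A11, S100A9, S100A8, S100A6, S100A4, S100A2, S100A16 and S100A14. Neighbours differed in direction: S100A4 rose while S100A2 beside it fell, and S100A16 hardly moved while S100A14 beside it was 39.2-fold lower in the knockout libraries. Upstream sequence is shown for these 4 genes, since they are the adjacent pairs with the widest contrast. The stretches come from the 250 bases before the RefSeq start of each gene (GRCh38.p14), without any base inside an exon annotated in GENCODE 29. All 10 genes had an entry. Capitals mark AP-1 (TGANTCA) and E-box (CAGGTG) matches on either strand.
S100A14 (chr1:153616356-153616575, minus strand): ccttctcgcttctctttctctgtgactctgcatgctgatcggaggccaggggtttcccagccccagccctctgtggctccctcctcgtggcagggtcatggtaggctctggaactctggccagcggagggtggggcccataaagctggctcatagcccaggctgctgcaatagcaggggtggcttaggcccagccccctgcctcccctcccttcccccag
S100A16 (chr1:153613146-153613387, minus strand): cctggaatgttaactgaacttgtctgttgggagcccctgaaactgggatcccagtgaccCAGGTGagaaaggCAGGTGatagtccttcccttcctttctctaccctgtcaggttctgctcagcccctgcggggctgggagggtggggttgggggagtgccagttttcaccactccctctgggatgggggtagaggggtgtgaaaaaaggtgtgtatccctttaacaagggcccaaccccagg
S100A2 (chr1:153565866-153566094, minus strand): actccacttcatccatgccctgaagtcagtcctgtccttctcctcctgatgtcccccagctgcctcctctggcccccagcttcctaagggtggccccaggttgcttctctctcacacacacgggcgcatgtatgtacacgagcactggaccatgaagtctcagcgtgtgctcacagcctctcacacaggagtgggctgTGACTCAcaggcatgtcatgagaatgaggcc
S100A4 (chr1:153545886-153546056, minus strand): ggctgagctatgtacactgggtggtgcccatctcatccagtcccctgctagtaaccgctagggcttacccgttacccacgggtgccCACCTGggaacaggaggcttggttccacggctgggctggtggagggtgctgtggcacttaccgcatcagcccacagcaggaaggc

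In the full windows of 250 bases, 4 motifs were searched on both strands: the TATA box TATAAA, the AP-1 motif TGANTCA, the GC box GGGCGG and the E-box CAGGTG. No matches of different motifs overlapped in the 10 windows. S100A2 was the one gene of the 10 with an AP-1 match, which lies 52 to 46 bases before the start. Such a match occurs in 6.6% of 35116 RefSeq promoters. E-box matches lay in S100A4, S100A8, S100A9, S100A14, S100A16 and S100P, beside 17.5% of all promoters. Those of S100A16 are the capitals in its stretch, the one of S100A4 is read on the other strand as CACCTG, and the one of S100A14 lies 14 to 9 bases before its start, in the part not shown. TATA boxes lay in S100A4, S100A9 and S100P (10.7% of all promoters). GC boxes lay in S100A6, S100A9, S100A10 and S100A11 (42.6% of all promoters). S100A6 and S100A10 had 24 CpG dinucleotides each and S100A11 had 15, against a median of 11 over all promoters, while the other 7 genes had 1 to 7. S100A14, which fell, and S100A4, which rose, each had 1 E-box. The part of these motifs in the S100 differences was not tested. A match is a run of letters and not a measured binding site.

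The neighbours of the S100 genes on chromosome 1 also differed between groups. A region of 1 Mb around the chromosome 1 members held 53 further protein-coding genes that were tested. Of these, 38 were called higher and 8 lower in the knockout average, with a median difference of 0.55, beside 40.5% and 40.1% of all genes tested. Some reached the minimum level only in WT, such as IVL, or only in knockout libraries, such as NPR1. The direction of their calls was fixed by that. In KO2 minus KO1, 40 of these 53 were called higher and 0 lower, with a median of 0.46 (voom called 45 higher and 0 lower, and at an unadjusted limma p below 0.05 the counts were 46 higher and 1 lower), beside 11.2% called higher over all genes tested. Of the 8 tested S100 genes there, S100A4, S100A6, S100A10, S100A11, S100A14 and S100A16 were higher in KO2 than in KO1, by 0.21 to 0.50. S100A2 was lower, and S100A9 was not called. Next to S100A10, THEM4, which encodes an acyl-CoA thioesterase, was at 4.50 and 4.87 FPKM in WT, 11.5 and 12.3 in KO1, and 17.3 and 17.9 in KO2. IVL and SPRR1A, cornified envelope genes between S100A11 and S100A9, were at 27.5 and 29.2 and at 7.03 and 5.44 FPKM in WT and at 0 in every knockout library. On chromosome 4, the tested protein-coding genes on either side of S100P were both called higher in the knockout average. AC093323.1, the one before it, was at 0.244 and 0.242 FPKM in WT, but at 7.44 ± 0.230 in KO1 and 7.31 ± 0.589 in KO2 (mean ± SD, n = 2), a difference of 2.75 ± 0.06 (limma adjusted p = 1.32e-06). Its WT libraries were below the minimum level, so it was tested through the knockout libraries alone. MRFAP1L1, the one after it, was at a mean of 19.7 FPKM in WT, against 22.9 in KO1 and 22.3 in KO2 (0.19 ± 0.05, adjusted p = 0.0140).

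**Figure D4:**
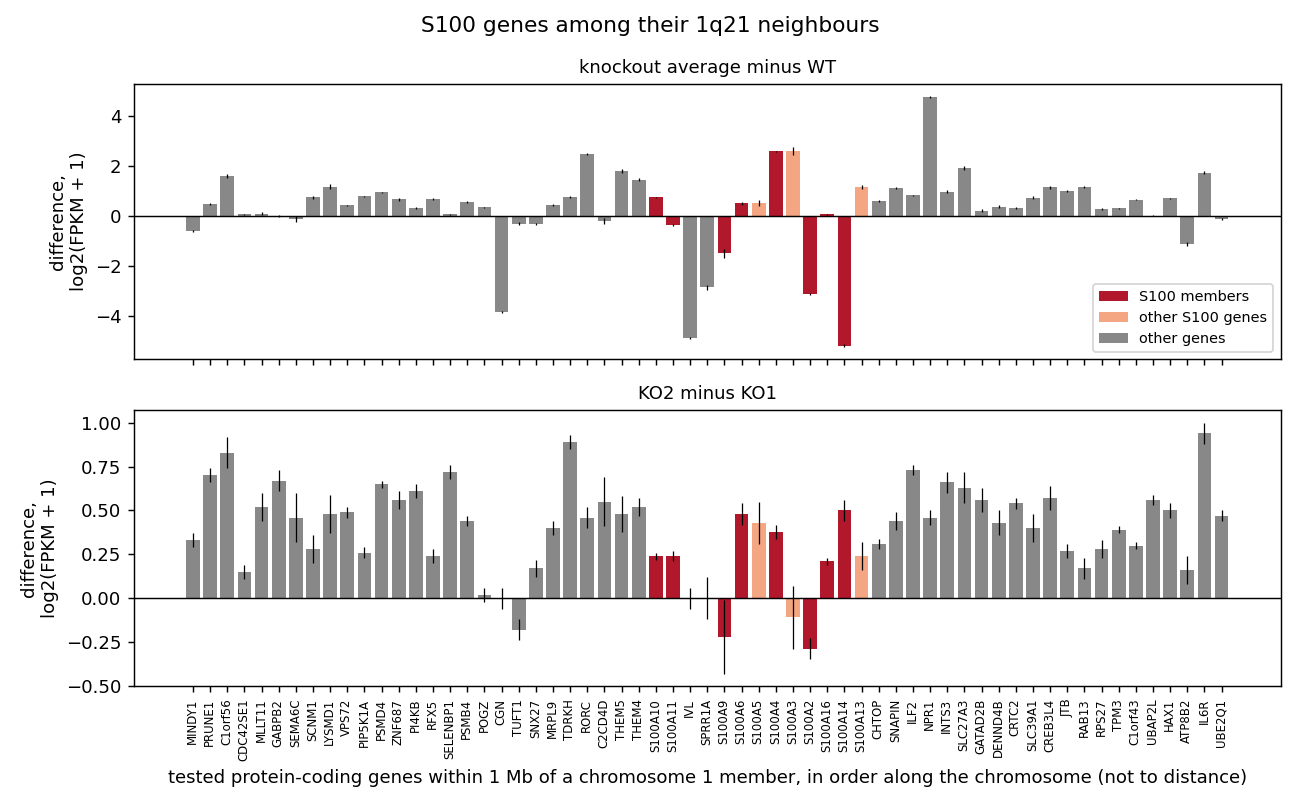
Difference on the log2(FPKM + 1) scale, with its SE, for the tested protein-coding genes in order along chromosome 1 (S100 members red, other S100 genes orange, other genes grey), for the knockout average minus WT (upper) and KO2 minus KO1 (lower). In the upper plot S100A4 and S100A14 point in opposite directions; in the lower plot most bars, S100 and other, lie above 0.

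Annexins, which bind membranes in the presence of calcium and take up several S100 proteins, were called in both directions. Of 10 tested (of 12 listed), 5 were called higher and 5 lower (median -0.26), beside 40.5% and 40.1% of all genes tested. ANXA6 and ANXA8 reached the minimum level only in knockout libraries, so their calls could only be higher. ANXA2, the partner of S100A10, was at 230 and 225 FPKM in WT, 158 and 158 in KO1, and 135 and 130 in KO2. It fell by 0.65 ± 0.02 in the knockout average (limma adjusted p = 6.23e-06), while S100A10 rose by 0.74 ± 0.02. ANXA1, the partner of S100A11, was at 251 and 236 FPKM in WT, 94.6 and 90.6 in KO1, and 70.4 and 70.2 in KO2. It fell by 1.58 ± 0.03 (adjusted p = 1.38e-06), and S100A11 fell as well, by 0.37 ± 0.03. ANXA11, a partner of S100A6, fell from 28.5 ± 1.37 FPKM (SD, n = 2) in WT to 13.8 ± 0.307 for KO1 and 11.7 ± 0.285 for KO2 (-1.10 ± 0.04, adjusted p = 5.96e-06), while S100A6 rose. ANXA5, the annexin used to stain dying cells, rose from 50.9 and 50.8 FPKM to 158 and 152 for KO1 and 156 and 154 for KO2.

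Genes for intracellular partners of S100 proteins were split too. Of 10 tested (of 12 listed), 4 were higher, 5 lower and 1 not called (median -0.26). Over all genes tested, 40.5% were called higher and 40.1% lower. EZR, which encodes the membrane linker ezrin bound by S100P, was at 317 and 325 FPKM in WT, 73.1 and 72.9 in KO1, and 79.7 and 81.6 in KO2 (-2.05 ± 0.02, limma adjusted p = 2.02e-07). MYH9, the myosin heavy chain bound by S100A4, was at 122 and 129 FPKM in WT, 53.6 and 51.8 in KO1, and 53.6 and 52.9 in KO2 (-1.22 ± 0.03, adjusted p = 2.43e-06). Both were lower in all 4 knockout libraries, in which S100P and S100A4 were higher. CACYBP, bound by S100A6, was at 40.0 and 39.0 FPKM in WT, 18.8 and 17.8 in KO1, and 16.9 and 16.6 in KO2 (-1.13 ± 0.03, adjusted p = 2.72e-06). S100PBP, a nuclear partner of S100P, rose from 4.09 and 4.51 FPKM in WT, with values of 6.52 and 6.14 for KO1 and 6.23 and 6.43 for KO2 (0.47 ± 0.05, adjusted p = 4.61e-04). AHNAK, a scaffold bound by S100A10 and annexin A2, was not called in the average (0.01 ± 0.04, adjusted p = 0.795). Its sign depended on scaling and on the group: KO1 was called higher (0.21) and KO2 lower (-0.19), and the average was called higher after quantile normalization (0.17) and with library size alone (0.16).

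Of 5 genes for receptors of released S100 proteins, 3 were tested and 3 were called higher (median 1.62), where 40.5% of all genes tested were called higher. BSG, or basigin, was at 105 and 110 FPKM in WT, 328 and 328 in KO1, and 344 and 327 in KO2 (1.62 ± 0.03, limma adjusted p = 1.05e-06). ALCAM was at 7.94 and 7.70 FPKM in WT, 35.7 and 35.1 in KO1, and 31.4 and 32.0 in KO2 (1.97 ± 0.03, adjusted p = 3.17e-07). Both were higher in every knockout library. AGER, the RAGE gene, was at 1.81 and 1.94 FPKM in WT, 2.33 and 2.56 in KO1, and 2.16 and 2.33 in KO2 (0.22 ± 0.06, adjusted p = 0.0193). The AGER call was lost after quantile normalization (adjusted p = 0.0586), with voom (adjusted p = 0.0646) and without WT replicate 1, WT replicate 2 or KO1 replicate 2 (adjusted p 0.0541 to 0.123). TLR4, a receptor of S100A8 and S100A9, was below the minimum level, at 0.457 and 0.431 FPKM in WT, 0.255 and 0.229 in KO1, and 0.204 and 0.158 in KO2. Its values were lower in all 4 knockout libraries than in WT.

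**Figure D5:**
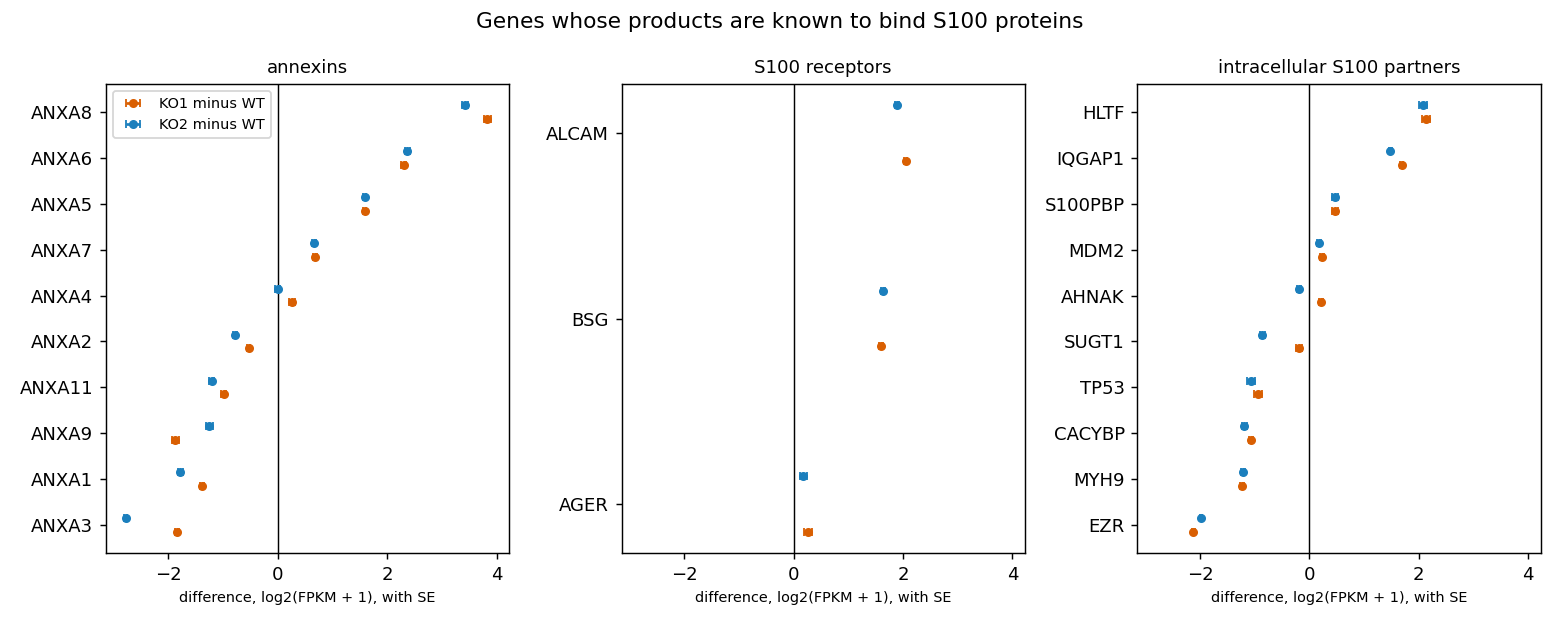
Difference from WT on the log2(FPKM + 1) scale, with its SE, for tested genes of the annexins, S100 receptors and intracellular S100 partners (KO1 orange, KO2 blue). BSG and ALCAM lie well above 0 and EZR and MYH9 well below it, while AHNAK lies on different sides of 0 in KO1 and KO2, and its KO2 value is -0.02 with scaling by library size alone.

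Other EF-hand genes, for comparison, were called higher in 2, lower in 4 and not called in 2 of 8 tested (median -0.12, and 0.01 after quantile normalization). The shares over all genes tested were 40.5% higher and 40.1% lower. CALM3, a calmodulin gene, fell from a mean of 87.9 FPKM in WT to means of 21.9 in KO1 and 24.8 in KO2 (-1.87 ± 0.03, limma adjusted p = 6.90e-07). Genes for transcription factors known to act on S100 promoters were higher in 4, lower in 7 and not called in 1 of 12 tested (median -0.43), beside the same shares. GRHL3, among the 7 lower genes, reached the minimum level only in WT, so its call could only be lower. JUNB, a part of AP-1, fell from a mean of 244 FPKM in WT to means of 157 in KO1 and 93.2 in KO2. KLF5 fell from 134 to 82.9 and 58.2 FPKM. CEBPB, known to act on S100A8 and S100A9, rose from 40.5 to 139 and 94.0 FPKM. S100A9, with at most 33 reads in a library, fell, and S100A8 was not detectable. The part of these factors in the S100 differences was not tested.

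For each tested S100 gene the genes with the most similar pattern were found among all tested protein-coding genes. The measure was the Euclidean distance over the 6 libraries of log2(FPKM + 1) centred on each gene's mean, where 0 is the same pattern. All points come from the same 6 libraries, and no p is given. The genes nearest to S100A14 were CDH1 (0.432), the E-cadherin gene, and PADI1 (0.439). CDH1 was at a mean of 59.6 FPKM in WT, against 0.155 in KO1 and 0.494 in KO2. S100A14 went from a mean of 375 FPKM to 7.74 and 11.4, a smaller fold. The scale understates the change of low genes, so a small distance does not mean an equal fold. This holds as well for OPN3 and B4GALNT2 below, whose WT means were under 1 FPKM. For S100A2 they were SMAGP and CLDN4 (0.197 each), for S100A4 HMG20B (0.128) and OPN3 (0.141), and for S100P B4GALNT2 (0.115) and CITED2 (0.129). S100A6 was nearest to PYCR1 (0.0854), S100A10 to IFT81 (0.0557), S100A11 to RHPN2 (0.0607) and S100A16 to IMPDH2 (0.0222). S100A14 had no gene as near as those of the other high S100 genes, and S100A9 was next, with ZBTB2 at 0.311. The distance is not scaled for the size of a change, and S100A14 had the widest change of the tested S100 genes. Its larger distances thus do not by themselves mean a distinct pattern. PADI1, like CDH1, reached the minimum level only in WT.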

How the data were processed

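Each of the 6 deposited files, 1 per library, lists 58735 Ensembl gene IDs with FPKM values made by the authors. HISAT2 2.0.5, featureCounts 1.5.0-p3 and the hg38 build were used, per the submitters' processing notes. Whether counting used strand, kept multimapping reads, or followed a given annotation is not given in the sources used. GENCODE 29 held every ID and gave names, positions and exon lengths. Whole reads were recovered for 100% of values (tolerance 0.1 of a read). The depth that scaled the FPKM values was not the plain total of recovered reads. It was 0.936 to 0.945 times that total in WT and 1.029 to 1.055 times in the knockout libraries. The floor of 3 reads allows for counting error alone, because no molecular identifiers mark copies of the same molecule.

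The design named a count test for counts and limma for other values; the files held FPKM, so limma was used. The 16046 genes that reached 1 FPKM in at least 2 libraries were fitted as log2(FPKM + 1) by limma 3.58.1 (R 4.3.3), with a mean for each group, a mean-variance trend, all 6 libraries and no covariate, and p-values were Benjamini-Hochberg adjusted over all of them. Levels are FPKM, with mean ± SD (n = 2), a fold is a ratio of mean FPKM, and differences are ± SE. Within groups the replicate chi-square per degree of freedom was 1.80 to 2.46, above counting error. It was 24.5 to 25.3 between KO1 and KO2 libraries and 309 to 357 between WT and knockout libraries. Each library counted once, though these values do not show whether replicates are separate cultures. Replicate numbers did not pair the libraries (correlation of deviations -0.0383 to 0.0191).

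The S100 genes and all lists were chosen with earlier results of these data known. Named are the 10 genes, every other S100 gene tested, the 3 highest members of each list, fixed partners (AGER, TLR4, ANXA2, ANXA11, AHNAK, MYH9, CACYBP, EZR, S100PBP), adjacent tested genes and the nearest genes by pattern; some of these are given only in counts. PDGFRA and ERBB2 are marker list members. FOS, FOSL1, FOSL2 and JUN are members of the list of transcription factors and were named after their values were seen. Alternatives were another pseudocount (0.1), no minimum level, quantile normalization, library size alone, limma-voom with TMM on recovered reads, a replicate block, 1 knockout group of 4 and leaving out each library. The limma code was tested on simulated data. Coding identity came from global alignment and promoter windows from RefSeq (GRCh38.p14).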

Additional observations from a re-analysis of the deposited data

Results flagged for a closer look

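The knockout groups differed from each other in 8 of the 9 tested S100 genes, by limma's direct test of KO2 minus KO1 on the log2(FPKM + 1) scale. Over all genes tested, 11.2% were called higher and 15.0% lower in that comparison. Of the 53 further tested genes near the chromosome 1 members, 40 were called higher and 0 lower, so the shift was not particular to S100 genes. The differences were 0.50 ± 0.06 for S100A14 (adjusted p = 0.00471), 0.48 ± 0.06 for S100A6 (adjusted p = 0.00614) and 0.38 ± 0.04 for S100A4 (adjusted p = 0.00296). They were 0.24 ± 0.02 for S100A10 (adjusted p = 0.00278), 0.24 ± 0.03 for S100A11 (adjusted p = 0.00672) and 0.21 ± 0.02 for S100A16 (adjusted p = 0.00458). KO2 was lower for S100P, by -0.78 ± 0.06 (adjusted p = 0.00151), and for S100A2, by -0.29 ± 0.06 (adjusted p = 0.0224). The S100A2 call was lost without the minimum level (limma adjusted p = 0.0559), with voom on recovered reads (adjusted p = 0.0564) and without some single libraries. The KRT17 level of KO2 was 4.63 times that of KO1; its part in these differences was not tested.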

How the results depend on the processing

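Over the alternatives, 413 single values of the 9 tested genes kept their direction and side of the threshold, 16 lost their call and 4 changed sign. All 49 counts of called S100 genes stayed within 1.5 times of those reported. The changed signs were S100A11 in KO2 minus WT after quantile normalization (0.08), S100A16 in KO1 minus WT after quantile normalization (0.21) and with library size alone (0.10), and S100A9 in KO2 minus KO1 without KO1 replicate 2 (0.09, adjusted p = 0.637; -0.52 without KO1 replicate 1); the cause was not tested. Library size alone moved the median of all genes in the knockout average from 0.02 to 0.14 and the share of calls that were higher from 50.2% to 56.5%. Leaving out a WT library moved that median to 0.11, with 14643 and 14668 genes tested. With a replicate block, 8 S100 genes were called in the knockout average in place of 9, since S100A16 lost its call (0.06, adjusted p = 0.0665). The block changed no call of the 10 genes in the other comparisons; S100A5 gained one in KO1 minus WT (0.31, adjusted p = 0.0264) and in KO2 minus KO1 (0.43, adjusted p = 0.0352). Leaving out a library leaves 1 group with 1 sample, assumed to vary like the others; 7 to 9 S100 genes were then called in the knockout average. Among the 53 neighbours on chromosome 1, 40 were called higher in KO2 minus KO1, 39 with the replicate block, 45 with voom and 30 to 40 without any 1 library. Depth limits S100A8 and S100A9, which had at most 33 reads in a library.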
